A study of Mus musculus with 8 samples.

Results

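The genes described here encode glycosyltransferases and sulfotransferases, the Golgi and endoplasmic reticulum enzymes that build and modify the sugar chains of glycoproteins, glycolipids and proteoglycans. They were taken by symbol from the array annotation: each gene whose single symbol starts with St3gal, St6gal, St6galnac, St8sia, B3gnt, B3galt, B4galt, Galnt, Gcnt, Fut, Mgat, Chst, Hs3st, Hs6st, Ndst or Ext followed by a digit. The rule gave 107 of 18193 measured genes, each read by its brightest probe set over all 8 arrays. One of them, Fut4-ps1, is named as a pseudogene.

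Total RNA came from mouse fourth-ventricle choroid plexus, dissected at embryonic day 13. The labels put 4 arrays in an Otx2 k.o. group, from an Otx2 deficient strain, and 4 in a wildtype group from the same litters, each array a separate biological replicate. All embryos had a mixed strain background, undetermined sex and no treatment. The sources used here do not give how the deletion is driven, which part of Otx2 it removes or how many embryos made up a sample. The study asked how loss of Otx2, a homeodomain transcription factor, alters the choroid plexus, the tissue that secretes cerebrospinal fluid.

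Sugar chains are made stepwise. N-glycans are trimmed and then branched by the Mgat enzymes, O-glycans are started by the Galnt enzymes and branched by Gcnt enzymes, and galactose, N-acetylglucosamine, fucose and sialic acid are then added. Heparan sulfate is polymerised by Ext and sulfated by Ndst, Hs3st and Hs6st enzymes, and Chst enzymes sulfate chains such as chondroitin and keratan sulfate. In developing tissue these sulfated chains bind secreted growth factors.

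Otx2 read 12.38, 12.46, 12.44 and 12.48 log2 units in replicates 1 to 4 of the Otx2 k.o. label and 11.998, 12.05, 11.97 and 11.85 in wildtype replicates 1 to 4. Under the first label it was therefore not lower but higher, by 0.47 log2 units (SE 0.06, adjusted p = 0.000648). No source used here says whether its probes lie outside the deleted part, so each direction rests on the labels and the first group is called knockout-labelled. The marker lists also moved with the labels. Of 12 choroid plexus epithelium markers 10 fell and 1, Otx2, rose, and the list's mean level was 10.14 to 10.43 log2 units in the knockout-labelled arrays and 11.17 to 11.31 in the wildtype arrays. Transthyretin, the defining secreted product of this epithelium, was bright in both groups, at 14.17 ± 0.03 and 14.21 ± 0.04 (SD, n = 4 arrays each). Its level was the highest of all genes, at the top of the measured range, where a difference may go unseen. The median difference of the epithelium list was -1.06 log2 units. Of 9 multiciliated cell markers 8 fell (7.74 to 8.12 against 8.89 to 9.04). All 10 stroma markers rose (10.96 to 11.29 against 10.40 to 10.53), as did 7 of 10 macrophage markers (9.07 to 9.56 against 8.46 to 8.73). Endothelial markers gave 1 rise and 3 falls among 10, with list means of 8.88 to 9.08 and 9.02 to 9.24. For erythroid markers 1 of 8 fell, and these means were 7.79 to 8.21 and 8.10 to 8.27. Among 9 neural progenitor markers 2 rose, with overlapping list means of 9.52 to 9.93 and 9.26 to 9.73. None of the 10 neuron markers passed limma (1 higher and 0 lower at an unadjusted p under 0.05). The neuron list varied within both groups, from 7.76 to 9.34 and from 7.40 to 9.03, highest in knockout-labelled replicate 2 and wildtype replicate 1. No marker is listed at 0, since these log2 values have no true zero. In whole tissue, fewer cells of a type and less RNA per cell cannot be told apart, and the part of these shifts in the differences below was not tested.

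**Figure D1:**
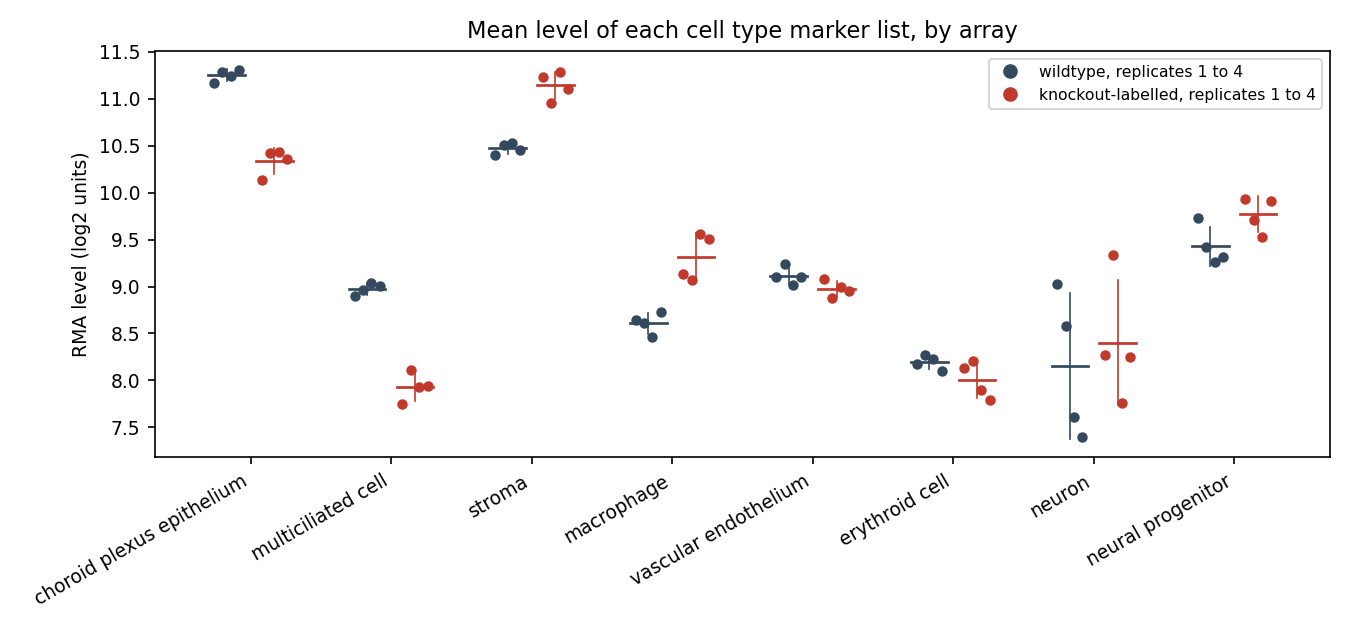
Mean level of each cell type marker list in each array, in log2 units on the vertical axis, with a point per array, a horizontal bar at the group mean and a vertical line for the SD over 4 arrays. Epithelium and multiciliated cell lists lie lower, and stroma and macrophage lists higher, in all 4 knockout-labelled arrays than in any wildtype array, while the neuron list spreads over more than a log2 unit within each group.

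Of the 107 enzyme genes, 29 passed the test at an adjusted p under 0.05 (27.1%, where 19.6% of all genes passed), with 16 higher and 13 lower under the knockout label. The 16 higher are 15.0% of the members against a background of 7.84%, and the 13 lower are 12.1% against 11.7%. At least 2-fold changes were 3 of the 107, or 2.8%, against 1.8% of all genes. The groups of 4 arrays did not overlap in 30 members, 28.0% against 24.3%. The median log2 difference over the 107 was 0.03, and over all genes 0.00. Without wildtype replicate 3 there were 10 higher and 8 lower members, and without wildtype replicate 4 there were 13 and 7. The counts over all genes went down too, from 1426 higher and 2131 lower to 905 and 1757, and to 1020 and 1633. The number higher was 11 without knockout-labelled replicate 4 (1012 of all genes) and 21 without knockout-labelled replicate 2 (1845 of all genes). At or over the median level of all genes (7.29 log2 units) 20 of 51 members passed, or 39.2%, against 28.3% of all such genes. Under it 9 of 56 passed, or 16.1%, against 10.8%. The mean over the 107 genes was 6.83 to 6.86 log2 units in the knockout-labelled arrays and 6.79 to 6.80 in the wildtype arrays, while the medians of all probe sets were 5.89 to 5.90 and 5.85 to 5.88.

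**Figure D2:**
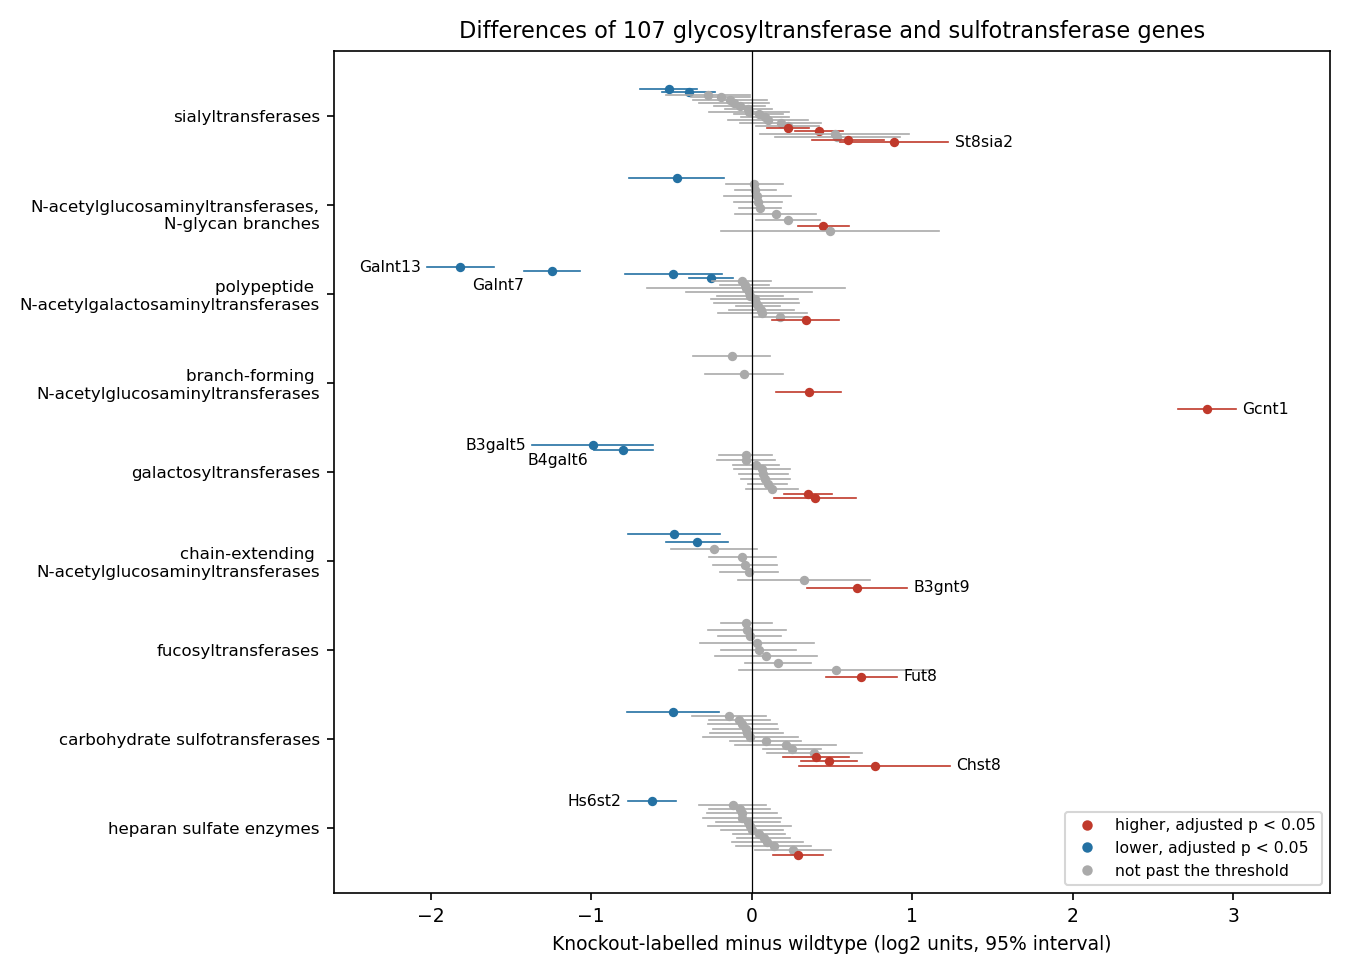
Log2 difference of each of the 107 genes, knockout-labelled minus wildtype, with its 95% interval from the limma fit, grouped by enzyme family. Red points passed the test as higher (16 genes), blue points as lower (13 genes) and grey points did not pass (78 genes); Gcnt1 lies apart on the right, and Galnt13 and Galnt7 on the left.

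The families that start and branch O-glycans held the largest rise and both of the largest falls. Gcnt1, which adds the branching N-acetylglucosamine of core O-glycans, read 8.96, 8.91, 8.91 and 9.04 log2 units in knockout-labelled replicates 1 to 4 and 6.23, 5.91, 6.13 and 6.20 in wildtype replicates 1 to 4. Every knockout-labelled array lay far above every wildtype array. The difference was 2.84 log2 units (SE 0.08, adjusted p = 2.04e-07), or 7.15-fold, and a second, dimmer probe set rose by 0.72 (adjusted p = 0.000474). Gcnt2, which branches the N-acetyllactosamine chains that carry the I blood group antigen, read 6.37, 6.04, 6.20 and 6.32 against 5.90, 5.75, 5.83 and 6.03. Its groups lay just apart, with a difference of 0.36 log2 units (SE 0.09, adjusted p = 0.0213). That call was lost without knockout-labelled replicate 1 or 4, or without wildtype replicate 2 or 3 (adjusted p up to 0.0665). None of the 7 other, dimmer probe sets of Gcnt2 passed, and the mean of all 8 gave 0.04 (adjusted p = 0.731). The other two, Gcnt3 and Gcnt7, did not pass. Gcnt7, the brighter of them, read 5.67, 5.86, 5.58 and 5.47 against 5.68, 5.69, 6.03 and 5.69, a difference of -0.13 with a 95% interval of -0.37 to 0.12. None of these 4 genes fell in limma (0 also at an unadjusted p under 0.05). The 2 that passed are 50% of the family, against 19.6% of all genes.

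Galnt genes encode the transferases that attach the first sugar of mucin-type O-glycans, N-acetylgalactosamine, to serine or threonine. Of 16, 4 fell, 1 rose and 11 did not pass (31.25% passed, against 19.6% of all genes), with a median of -0.01. Galnt13, a member known from neural tissue, read 5.94, 6.002, 5.95 and 6.32 in the knockout-labelled arrays and 7.94, 7.78, 7.83 and 7.91 in the wildtype arrays. The groups lay far apart, and knockout-labelled replicate 4 was the highest of its group. The difference was -1.81 log2 units (SE 0.09, adjusted p = 4.89e-06), which is 3.52-fold lower, and the other probe set changed by -1.73. Galnt7, which prefers peptides that already carry a sugar, read 9.07, 9.15, 9.08 and 9.20 against 10.18, 10.37, 10.51 and 10.41. All 4 knockout-labelled values were close together and well under the lowest wildtype value. It fell by 1.24 log2 units (SE 0.08, adjusted p = 1.26e-05), 2.37-fold, and its other probe sets gave -1.23 and -1.38.

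The remaining Galnt changes were smaller. Galnt12 read 6.43, 6.55, 7.05 and 6.85 against 7.14, 7.19, 7.09 and 7.41, with knockout-labelled replicate 3 just under the lowest wildtype array. It changed by -0.49 log2 units (SE 0.13, adjusted p = 0.0315), and the call was lost without knockout-labelled replicate 1 or 2, or without wildtype replicate 1, 2, 3 or 4 (adjusted p up to 0.0891). Galnt1, a widely expressed starting enzyme, changed by -0.25 (adjusted p = 0.0166), and its other probe set by -0.30. The Galnt1 call was lost without wildtype replicate 4 (adjusted p = 0.0539), where 2 members of the family fell. Galnt10 rose by 0.34 (adjusted p = 0.0321), a call kept without knockout-labelled replicate 2 but lost without any of the other 7 arrays (adjusted p up to 0.0895), and lost as the mean of its probe sets (0.22, adjusted p = 0.110). Galnt2, the brightest that did not pass, read 9.61, 9.76, 9.88 and 9.77 against 9.76, 9.79, 9.85 and 9.80. The groups overlapped, and the 95% interval of the difference was -0.20 to 0.11. Galnt3, Galnt4, Galnt5, Galnt6, Galnt9, Galnt11, Galnt14, Galnt15, Galnt16 and Galnt18 also did not pass, with differences from -0.06 to 0.18.

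Promoter windows are printed for Gcnt1, Galnt13 and Galnt7, whose changes were the largest, and for St3gal6 and B3gnt2, which fell and whose windows hold a short match to the sequence that Otx2-type homeodomains are known to prefer. Among called genes with a window, the same match is also in windows of B3galt1 and Chst1, which rose. The sequences are RefSeq's on GRCm38.p6, from 250 bases before to 50 after a transcript start, read 5′ to 3′ on the gene's strand. Capitals mark TAATC or its reverse complement GATTA. Gcnt1 has 3 windows and St3gal6 has 2, of which the most upstream is shown.
Gcnt1 chr19:17372795-17373094 (-): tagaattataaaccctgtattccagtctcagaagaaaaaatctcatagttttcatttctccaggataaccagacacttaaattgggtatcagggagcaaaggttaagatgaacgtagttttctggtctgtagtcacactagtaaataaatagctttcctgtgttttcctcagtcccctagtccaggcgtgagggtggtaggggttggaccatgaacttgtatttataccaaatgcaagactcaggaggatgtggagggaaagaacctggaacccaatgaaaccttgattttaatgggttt
Galnt13 chr2:54436137-54436436 (+): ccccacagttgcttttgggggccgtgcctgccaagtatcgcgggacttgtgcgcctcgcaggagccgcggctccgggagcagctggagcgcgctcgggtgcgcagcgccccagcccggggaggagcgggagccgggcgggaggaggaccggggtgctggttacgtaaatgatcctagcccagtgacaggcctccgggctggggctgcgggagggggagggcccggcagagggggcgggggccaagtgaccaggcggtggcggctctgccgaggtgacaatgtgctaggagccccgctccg
Galnt7 chr8:57653006-57653305 (-): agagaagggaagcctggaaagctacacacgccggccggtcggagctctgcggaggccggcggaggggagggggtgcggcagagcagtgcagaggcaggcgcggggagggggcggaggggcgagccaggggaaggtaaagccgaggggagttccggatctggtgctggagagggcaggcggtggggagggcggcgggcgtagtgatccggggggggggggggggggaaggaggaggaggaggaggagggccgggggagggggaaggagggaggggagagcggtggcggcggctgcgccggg
St3gal6 chr16:58524204-58524503 (-): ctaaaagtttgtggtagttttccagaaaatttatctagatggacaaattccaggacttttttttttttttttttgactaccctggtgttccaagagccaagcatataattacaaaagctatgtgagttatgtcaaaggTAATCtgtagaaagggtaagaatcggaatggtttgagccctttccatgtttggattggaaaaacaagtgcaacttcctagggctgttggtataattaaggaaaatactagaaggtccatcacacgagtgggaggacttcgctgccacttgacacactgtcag
B3gnt2 chr11:22859686-22859985 (-): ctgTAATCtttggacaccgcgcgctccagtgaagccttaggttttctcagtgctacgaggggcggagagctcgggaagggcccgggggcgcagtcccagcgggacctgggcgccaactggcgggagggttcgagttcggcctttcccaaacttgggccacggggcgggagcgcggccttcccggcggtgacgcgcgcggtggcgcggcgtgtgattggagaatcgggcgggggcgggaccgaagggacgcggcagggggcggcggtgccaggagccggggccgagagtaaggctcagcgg
Counted from the transcript start, the match lies at -112 in St3gal6, -247 in B3gnt2, 8 in B3galt1 and -185 in Chst1. The other window of St3gal6 and the other window of B3galt1 hold no match. The windows of Galnt13 and Galnt7 are rich in G and C, at 73.0% and 75.0%, with 28 and 25 CG dinucleotides, while the printed one of Gcnt1 has 40.7% and 2. The other windows of Gcnt1 have 52.0% with 3 and 58.7% with 16. RefSeq windows were matched for 81 of the 107 genes, among them 13 of the 16 that rose and 10 of the 13 that fell. The remaining called genes were not searched. There were 109 windows in all. TAATC, on either strand, was in 11 of these (10.1%) and in 22.0% of all 32851 windows. It was in 2 of 22 windows of genes that rose (9.09%) and 2 of 15 of genes that fell (13.3%). The longer TAATCC, which contains it, was in 3 (2.75%) against 7.06%, and in 0 of 22 windows of genes that rose and 0 of 15 of genes that fell. Windows of the enzyme genes had a median G and C content of 62.0%, against 52.7% over all windows. A match describes these letters only.

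Among the N-glycan branching enzymes 1 of 10 rose and 1 fell (20% passed, against 19.6% of all genes), with a median of 0.04. Mgat5, which adds the branch that is extended with poly-N-acetyllactosamine, read 8.72, 8.79, 8.68 and 8.84 against 8.45, 8.27, 8.21 and 8.33. The groups did not overlap, and it rose by 0.45 log2 units (SE 0.07, adjusted p = 0.00186), with a second probe set at 0.66 and a dimmer one at 0.03. Mgat4a, which adds a different branch, read 6.99, 6.97, 7.43 and 7.40 against 7.40, 7.78, 7.73 and 7.74. It changed by -0.47 log2 units (SE 0.13, adjusted p = 0.0345), although wildtype replicate 1 lay among the knockout-labelled values. The Mgat4a call was lost without knockout-labelled replicate 1 or 2, or without wildtype replicate 2, 3 or 4 (adjusted p up to 0.0962). Its dimmer second probe set gave -0.22 (adjusted p = 0.182). Mgat4b, the brightest that did not pass, read 9.59, 9.52, 9.69 and 9.61 against 9.58, 9.59, 9.58 and 9.57, with an interval of -0.11 to 0.15. Without knockout-labelled replicate 2 the family had 2 rises. Mgat1, Mgat2, Mgat3, Mgat4c, Mgat4d, Mgat4e and Mgat5b did not pass either, with differences from 0.02 to 0.49. Mgat5b, the largest of them, varied within groups and had an interval of -0.19 to 1.17.

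Fut8, which adds the core fucose of N-glycans, rose and was the only call among 9 fucosyltransferase genes. In limma 0 fell (0 at an unadjusted p under 0.05), so 11.1% passed, against 19.6% of all genes. Fut8 read 8.48, 8.33, 8.71 and 8.67 in the knockout-labelled arrays and 7.90, 8.001, 7.72 and 7.85 in the wildtype arrays, with no overlap. The difference was 0.68 log2 units (SE 0.10, adjusted p = 0.00103), while its 2 dimmer probe sets gave 0.01 and 0.42 (adjusted p = 0.0971). Fut11, the brightest that did not pass, read 8.32, 8.15, 8.54 and 8.47 against 8.38, 8.43, 8.39 and 8.33, an interval of -0.21 to 0.18. Fut9, which makes the Lewis x epitope of neural progenitors, read 8.11, 7.23, 7.67 and 8.32 against 7.90, 6.86, 7.09 and 7.37 and did not pass, with a difference of 0.53 (adjusted p = 0.222). Its values spread by about a log2 unit within each group. With the replicate number as a block Fut9 passed (adjusted p = 0.0289), and 2 genes of the family rose. Fut1, Fut2, Fut4, Fut4-ps1, Fut7 and Fut10 differed by -0.03 to 0.16.

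Galactosyltransferase genes split evenly, with 2 of 12 higher, 2 lower (33.3% passed, against 19.6% of all genes) and a median of 0.07. The enzymes B4galt5 and B4galt6 make lactosylceramide, the parent of most gangliosides, and their genes moved in opposite directions. B4galt6 read 10.45, 10.79, 10.53 and 10.55 against 11.34, 11.35, 11.35 and 11.48. The wildtype arrays were tightly grouped and all above the knockout-labelled ones, and the difference was -0.80 log2 units (SE 0.08, adjusted p = 0.000148). Its 3 further probe sets changed by -0.81, -0.97 and -0.87. B4galt5 read 8.34, 8.15, 8.28 and 8.29 against 7.97, 7.93, 7.80 and 7.95 and rose by 0.35 log2 units (SE 0.07, adjusted p = 0.00489). Its probe set is of a kind that can be shared between transcripts, and with such probe sets left out B4galt5 gave 0.31 (adjusted p = 0.0802). B3galt5, which makes type I chains of galactose on N-acetylglucosamine, read 5.49, 5.63, 4.95 and 5.46 against 6.10, 6.19, 6.54 and 6.66. No array overlapped, and it changed by -0.99 log2 units (SE 0.17, adjusted p = 0.00266), with further probe sets at -0.12, -0.37 and -0.06. B3galt1 rose by 0.40 (adjusted p = 0.0367) with overlapping groups, a call lost without knockout-labelled replicate 1, 3 or 4, or without wildtype replicate 2, 3 or 4 (adjusted p up to 0.104). The B3galt1 call was also lost with the mean of its probe sets (adjusted p = 0.121) and with quantile normalization (adjusted p = 0.0691). B4galt1, the main lactosamine-forming enzyme and the brightest that did not pass, read 9.92, 10.05, 10.20 and 9.98 against 10.04, 10.06, 10.04 and 10.16, an interval of -0.20 to 0.13. B3galt2, B3galt4, B3galt6, B4galt2, B4galt3, B4galt4 and B4galt7 differed by -0.04 to 0.13.

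Of 8 B3gnt genes, whose enzymes add N-acetylglucosamine, most of them to galactose to extend chains, 1 rose and 2 fell, with a median of -0.05. The share that passed was 37.5%, against 19.6% of all genes. B3gnt9 read 7.68, 7.33, 8.09 and 7.60 against 6.94, 7.12, 6.95 and 7.05. Wildtype arrays were alike and knockout-labelled replicate 2 was nearest to them, and the gene rose by 0.66 log2 units (SE 0.14, adjusted p = 0.00887). B3gnt4 read 5.03, 5.61, 5.52 and 5.59 against 5.88, 5.83, 5.90 and 6.08, with knockout-labelled replicate 1 far under the rest, and changed by -0.48 log2 units (SE 0.13, adjusted p = 0.0262). B3gnt2, the main extender of poly-N-acetyllactosamine, changed by -0.34 (adjusted p = 0.0213), with a dim second probe set at -0.19. Both of these falls were lost without wildtype replicate 3 or 4, with adjusted p up to 0.0770 for B3gnt4 and 0.0655 for B3gnt2. B3gnt5, which starts the lacto-series glycolipids, read 9.16, 9.09, 8.32 and 8.88 against 8.88, 8.40, 8.47 and 8.41 and did not pass, with knockout-labelled replicate 3 under all wildtype arrays. Its interval was -0.09 to 0.74, and B3gnt3, B3gnt6, B3gnt7 and B3gnt8 differed by -0.24 to -0.02. Without knockout-labelled replicate 3 the family had 2 rises.

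Sialyltransferases cap chains with sialic acid, and 4 of 20 rose and 2 fell (30% passed, against 19.6% of all genes), with a median of 0.06. St8sia2 and St8sia4 encode the polysialyltransferases known for modifying the neural cell adhesion molecule, and both rose. St8sia2 read 9.28, 9.36, 9.05 and 9.23 in the knockout-labelled arrays and 8.81, 8.34, 8.07 and 8.15 in the wildtype arrays. All knockout-labelled values were higher, and the highest array of each group was the one with the highest neuron marker mean, knockout-labelled replicate 2 (9.34) and wildtype replicate 1 (9.03). The part of neurons in this difference was not tested. It rose by 0.89 log2 units (SE 0.15, adjusted p = 0.00271), and its second probe set by 0.69. St8sia4 rose by 0.23 (adjusted p = 0.0229), but the call was lost with the replicate number as a block (adjusted p = 0.0529), without knockout-labelled replicate 3 or 4, or without wildtype replicate 2 or 3 (largest adjusted p = 0.0689), and as the mean of its 2 probe sets (0.10, adjusted p = 0.328). St8sia1, the synthase of ganglioside GD3, fell with a difference of -0.39 (adjusted p = 0.00471), and 1 of its 2 dimmer probe sets passed at -0.49, the other being at -0.14.

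St3gal1, which sialylates core O-glycans, read 5.85, 5.81, 5.88 and 6.19 against 5.37, 5.20, 5.26 and 5.49. It rose by 0.60 log2 units (SE 0.10, adjusted p = 0.00231) without overlap, and its dim second probe set gave 0.10. St3gal6, which sialylates galactose of N-acetyllactosamine, read 7.99, 7.98, 8.19 and 8.20 against 8.65, 8.52, 8.54 and 8.72. It changed by -0.52 log2 units (SE 0.08, adjusted p = 0.00149), and the next 2 probe sets by -0.21 (adjusted p = 0.0748) and -0.50. The 2 dimmest gave 0.00 and -0.11. The brightest St3gal6 probe set is of the kind that can be shared between transcripts, and the call held with such probe sets left out. St6galnac3, which adds sialic acid to N-acetylgalactosamine, read 7.96, 7.93, 8.10 and 7.98 against 7.52, 7.69, 7.53 and 7.55 and rose by 0.42 log2 units (SE 0.07, adjusted p = 0.00194). Its 2 dimmer probe sets gave 0.69 (adjusted p = 0.0728) and 0.01. St6gal1, the main enzyme of terminal sialic acid on N-glycans and the brightest that did not pass, read 9.64, 9.82, 9.46 and 9.57 against 9.90, 9.60, 9.44 and 9.63, an interval of -0.27 to 0.23. St6galnac5 lay higher in all 4 knockout-labelled arrays but missed the threshold, with a difference of 0.53 (adjusted p = 0.0611). Under the replicate block it passed (adjusted p = 0.0101), as did St6gal2 (difference 0.52, adjusted p = 0.0407 against 0.121 without the block). The remaining 12 (St3gal2, St3gal3, St3gal4, St3gal5, St6gal2, St6galnac1, St6galnac2, St6galnac4, St6galnac6, St8sia3, St8sia5 and St8sia6) differed by -0.27 to 0.52. A dimmer probe set of St3gal3 did pass, at -0.27 (adjusted p = 0.0150).

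**Figure D3:**
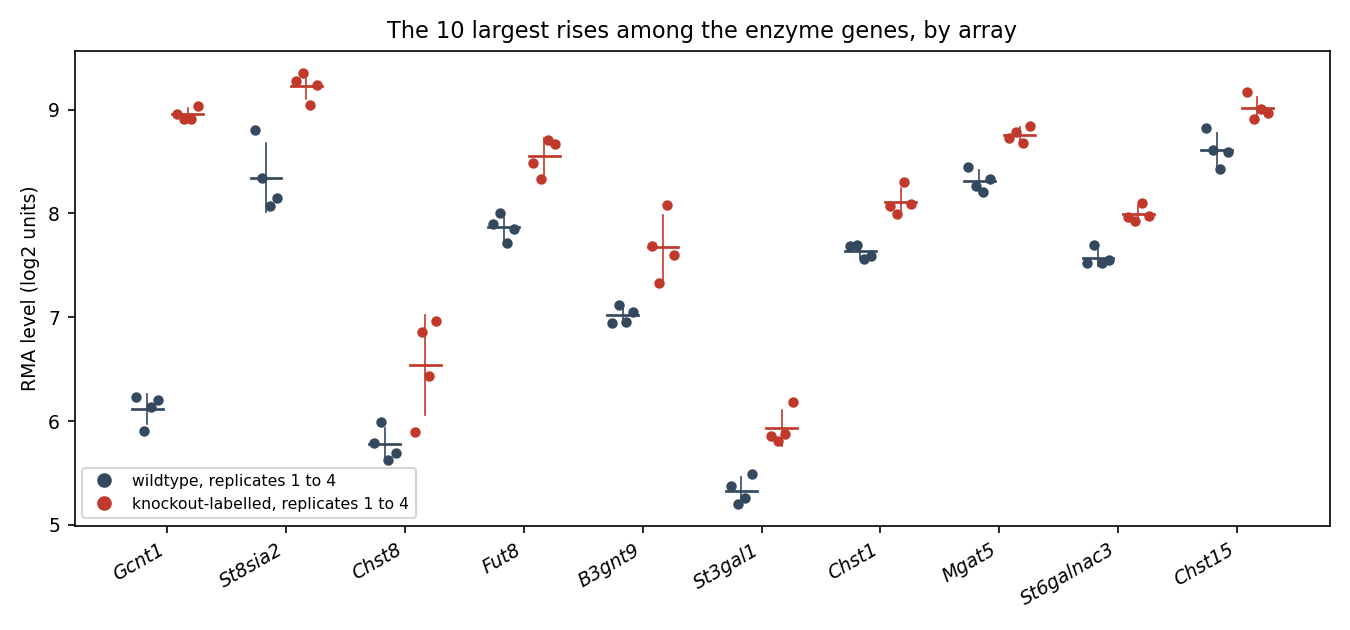
Level in log2 units of the 10 enzyme genes with the largest rises, with a point for each of 4 wildtype (dark) and 4 knockout-labelled (red) arrays, a horizontal bar at the mean and a vertical line for the SD. The groups are separate in 9 of the 10 genes, and the gap of Gcnt1 is the widest; in Chst8, knockout-labelled replicate 1 lies within the wildtype range.

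Carbohydrate sulfotransferases rose in 3 of 14 genes and fell in 1 (28.6% passed, against 19.6% of all genes), with a median of 0.04. Chst1, which sulfates galactose of keratan sulfate, read 8.07, 7.99, 8.30 and 8.09 against 7.69, 7.70, 7.56 and 7.59. All knockout-labelled arrays were higher, and it rose by 0.48 log2 units (SE 0.08, adjusted p = 0.00209). Chst15, which makes the doubly sulfated units of chondroitin sulfate E, read 9.17, 8.91, 9.01 and 8.97 against 8.82, 8.61, 8.43 and 8.59 and rose by 0.40 log2 units (SE 0.09, adjusted p = 0.0136). Its dimmer second probe set gave 0.32 (adjusted p = 0.0570). Chst8, known for sulfating the N-acetylgalactosamine of pituitary hormones, read 5.90, 6.85, 6.44 and 6.97 against 5.79, 5.99, 5.63 and 5.69. Its knockout-labelled arrays varied by over a log2 unit and replicate 1 was within the wildtype range. The difference was 0.76 log2 units (SE 0.21, adjusted p = 0.0300), a call lost without knockout-labelled replicate 2, 3 or 4, or without wildtype replicate 1, 3 or 4 (adjusted p up to 0.0858). Chst5, which sulfates N-acetylglucosamine, read 6.13, 6.26, 6.000 and 5.57 against 6.45, 6.52, 6.47 and 6.48, with no overlap. It changed by -0.49 log2 units (SE 0.13, adjusted p = 0.0248), a call lost without knockout-labelled replicate 3, or without wildtype replicate 2, 3 or 4 (largest adjusted p = 0.0649).

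Chst14, which makes dermatan sulfate and was the brightest that did not pass, read 9.08, 8.81, 9.11 and 8.93 against 8.62, 8.72, 8.79 and 8.79. Its groups did not overlap, the difference was 0.25 (adjusted p = 0.0577) and the interval was 0.07 to 0.43. With arrays centred on their medians or with array weights, 5 members of the family rose. Chst2, Chst3, Chst4, Chst7, Chst9, Chst10, Chst11, Chst12 and Chst13 did not pass, with differences from -0.14 to 0.39.

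The 14 heparan sulfate enzyme genes held 1 rise and 1 fall (14.3% passed, against 19.6% of all genes), with a median of 0.00. Hs6st2, one of the heparan sulfate 6-O-sulfotransferases, read 9.82, 9.87, 9.95 and 10.01 against 10.44, 10.60, 10.54 and 10.56. Both groups were tight and separate, and it changed by -0.62 log2 units (SE 0.07, adjusted p = 0.000195). Among its 3 dimmer probe sets 2 also passed, at -0.69 and -0.26, and the other gave 0.05. Its paralogs Hs6st1 and Hs6st3 did not pass, with intervals of -0.10 to 0.37 and -0.28 to 0.15. Ext1, a subunit of the chain polymerase, rose by 0.29 (adjusted p = 0.0178), a call lost without wildtype replicate 3 (adjusted p = 0.0545), while its dim second probe set gave 0.09. Ext2, the partner subunit and the brightest that did not pass, read 9.36, 9.41, 9.64 and 9.44 against 9.31, 9.44, 9.38 and 9.43, an interval of -0.09 to 0.24. With array weights, with quantile normalization and without knockout-labelled replicate 2, 2 members of the family rose. None of the 3 Ndst or 6 Hs3st genes passed in limma, and their differences ran from -0.12 to 0.26. At an unadjusted p under 0.05, Hs3st1 was the only one of these 9, with an adjusted p of 0.126. Under the median level of all genes, where 10.8% of genes passed, lay 2 of the Ndst and 4 of the Hs3st genes.

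**Figure D4:**
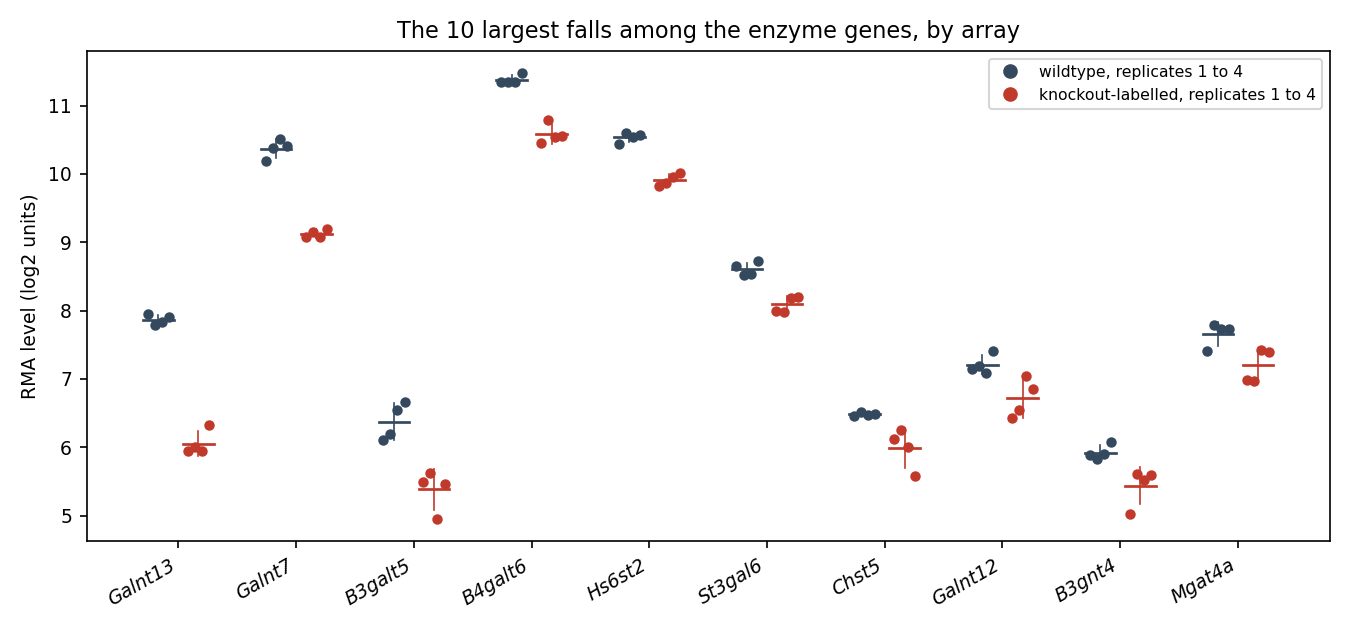
Level in log2 units of the 10 enzyme genes with the largest falls, with a point for each of 4 wildtype (dark) and 4 knockout-labelled (red) arrays, a horizontal bar at the mean and a vertical line for the SD. The groups are separate in 9 of the 10 genes; in Mgat4a, wildtype replicate 1 lies at the level of the upper knockout-labelled arrays.

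Of the 29 enzyme genes that passed, 17 had a log2 difference under 0.5 in size. Of the 78 that did not pass, 68 had a 95% interval within 0.5 log2 units of zero and 9 had a difference of at least 0.25 in size. The median SD of the members was 0.15 in the knockout-labelled group and 0.10 in the wildtype group, against 0.13 and 0.10 over all genes. A total of 61 members had several probe sets. Of the 23 called members among them, a further probe set passed in the same direction for 11 and in the opposite direction for 0 in limma.

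Genes that work with these enzymes were counted from lists chosen for their role. Among 8 further heparan sulfate genes 1 rose and 2 fell (37.5% passed, against 19.6% of all genes). Sulf1 and Sulf2 encode the extracellular sulfatases that remove the 6-O-sulfate which Hs6st enzymes add, and they moved in opposite directions. Sulf1 read 10.49, 10.95, 10.87 and 10.68 in the knockout-labelled arrays and 11.88, 11.99, 12.07 and 11.99 in the wildtype arrays. Sulf2 read 11.97, 11.84, 12.07 and 11.86 against 11.26, 11.34, 11.41 and 11.34. Neither gene's groups overlapped, and the differences were -1.23 log2 units (SE 0.10, adjusted p = 4.32e-05) and 0.60 log2 units (SE 0.07, adjusted p = 0.000296). Extl2 changed by -0.21 (adjusted p = 0.0351), a call lost with the replicate number as a block (adjusted p = 0.0705), and without knockout-labelled replicate 1 or 4, or without wildtype replicate 1, 2 or 4 (adjusted p up to 0.0957). The number of rises on this list was 2 without knockout-labelled replicate 3, and with the trended robust prior, median-centred arrays or quantile normalization. It was 3 with array weights or over genes above the median level. Of 14 glycosaminoglycan linkage and chondroitin genes 1 rose and 1 fell (14.3% passed, against 19.6% of all genes). Csgalnact1, which starts chondroitin sulfate chains, read 8.42, 8.26, 8.58 and 8.60 against 9.38, 9.46, 9.29 and 9.41 and changed by -0.92 log2 units (SE 0.09, adjusted p = 8.45e-05). Dse, the epimerase that forms dermatan sulfate, rose by 0.50 (adjusted p = 0.0127). Without knockout-labelled replicate 2, 3 genes of this list rose, and with array weights 2 did. Its falls numbered 2 with array weights, the trended robust prior, median-centred arrays or quantile normalization, and 3 over genes above the median level.

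Core proteins carry the glycosaminoglycan chains. Of 20, 8 rose and 2 fell, with a median of 0.23, where 7.84% of all genes rose and 11.7% fell. Just 4 of the 20 lay under the median level of all genes. In either direction 50% of the list passed, against 28.3% of all genes at or over that level. The glypican Gpc4 rose by 0.80 (adjusted p = 0.000273), the chondroitin sulfate proteoglycan versican (Vcan) by 0.80 (adjusted p = 0.00118) and the basement membrane collagen Col18a1 by 0.42 (adjusted p = 0.00177). Agrn, Sdc1, Sdc3, Gpc1 and Gpc6 rose as well, by 0.25 to 0.52. The Gpc6 call was lost under the replicate block (adjusted p = 0.0732) and without any single array other than knockout-labelled replicate 2. The Gpc1 call was lost without knockout-labelled replicate 1, 2 or 4, or without wildtype replicate 2, 3 or 4, and that of Sdc3 without wildtype replicate 4. As the mean of their probe sets Agrn (adjusted p = 0.0689), Sdc3 (adjusted p = 0.606) and Gpc6 (adjusted p = 0.0534) did not pass. The syndecan Sdc4 changed by -0.54 (adjusted p = 0.00314) and the glypican Gpc3 by -0.25 (adjusted p = 0.0164), the latter lost without wildtype replicate 2 (adjusted p = 0.0555). Without wildtype replicate 4 there were 5 rises. In the same arrays all 10 stroma markers and 7 of 10 macrophage markers were higher. There, 10 of 12 epithelium and 8 of 9 multiciliated cell markers were lower. The part of these shifts in the core protein differences was not tested.

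**Figure D5:**
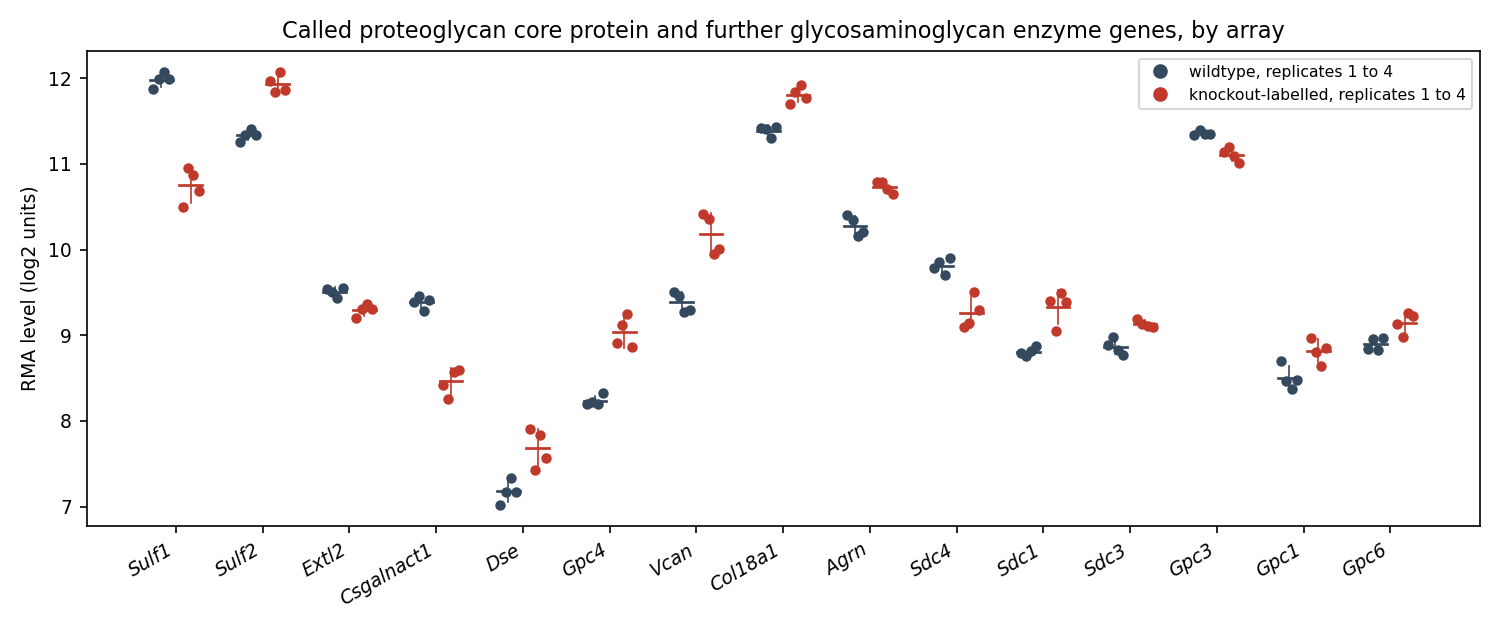
Level in log2 units of the 15 called genes of the core protein list and of the further heparan and chondroitin sulfate enzyme lists, with a point for each of 4 wildtype (dark) and 4 knockout-labelled (red) arrays, a horizontal bar at the mean and a vertical line for the SD. Sulf1 and Csgalnact1 show the widest falls, and Vcan and Gpc4 the widest rises.

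Of 23 genes that supply sugar nucleotides and sulfate, 6 fell and 2 rose, with a median of -0.07, where 11.7% of all genes fell and 7.84% rose. Just 3 of the 23 lay under the median level of all genes. In either direction 34.8% of this list passed, against 28.3% of all genes at or over that level. Fpgt, of fucose salvage, changed by -0.53 (adjusted p = 0.000764), the Golgi UDP-galactose transporter Slc35a2 by -0.53 (adjusted p = 0.00112) and Gfpt1, which opens the hexosamine pathway, by -0.43 (adjusted p = 0.00175). The Gfpt1 value was -0.15 as the mean of its probe sets (adjusted p = 0.0865). Slc35a3, Ugdh and Slc26a2 fell too, by 0.31 to 0.41 log2 units. The Slc26a2 call was lost without knockout-labelled replicate 4, or without wildtype replicate 2 or 4, and as the mean of its probe sets (adjusted p = 0.0616). Gmds, an enzyme of the pathway to the fucose donor, rose by 0.70 (adjusted p = 0.00441), and the sialic acid synthase Nans by 0.23 (adjusted p = 0.0152).

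Of 19 other O-glycan and glycolipid genes 4 rose and 2 fell (31.6% passed, against 19.6% of all genes), with a median of 0.05. Pomgnt1, of the O-mannose chains of dystroglycan, changed by -0.74 (adjusted p = 5.39e-05), and C1galt1c1, the chaperone of the core O-glycan galactosyltransferase, by -0.47 (adjusted p = 0.00258). The rises lay near the threshold. They were 0.24 (adjusted p = 0.0359) in Rfng, 0.25 (adjusted p = 0.0405) in Pofut1, 0.35 (adjusted p = 0.0437) in Ogt and 0.36 (adjusted p = 0.0447) in A4galt. Under the replicate block 1 rise was left, that of Ogt, and the adjusted p was 0.0746 for Rfng, 0.0542 for Pofut1 and 0.0839 for A4galt. The A4galt call was also lost with the trended robust prior (adjusted p = 0.0511) and with quantile normalization (adjusted p = 0.0671). As the mean of their probe sets Rfng (0.15, adjusted p = 0.119) and Pofut1 (0.10, adjusted p = 0.360) did not pass, and 2 rises were left. The number of rises was 0 in limma without knockout-labelled replicate 3 or 4 or without wildtype replicate 3 or 4, and 1 without knockout-labelled replicate 1 or wildtype replicate 2. None of 8 N-glycan trimming genes passed in limma (0 higher and 1 lower at an unadjusted p under 0.05), where 19.6% of all genes passed. However, 2 rose without knockout-labelled replicate 2, and 1 fell with the trended robust prior or over genes above the median level. Among 15 glycan-degrading enzymes 3 fell and 1 rose (26.7% passed, against 19.6% of all genes). The sialidases Neu3 and Neu1 changed by -0.45 (adjusted p = 0.00818) and -0.49 (adjusted p = 0.0147), and Neu1 was at -0.24 as the mean of its probe sets (adjusted p = 0.103). Glb1 changed by -0.36 (adjusted p = 0.0489), lost with the replicate number as a block (adjusted p = 0.0615) and without any single array other than knockout-labelled replicate 3 (adjusted p up to 0.130). Idua rose by 0.30 (adjusted p = 0.0358), a call lost without knockout-labelled replicate 1, 3 or 4, or without wildtype replicate 1, 2 or 4 (largest adjusted p = 0.102) and as the mean of its probe sets (adjusted p = 0.132).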

How the data were processed

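The authors deposited 1 log2 value per probe set and array, computed by RMA according to the submitters' processing notes, and no source used here gives its version. RMA brings the arrays' distributions together, so changes in total RNA cannot be seen, and no detection calls were used, so dim levels cannot be told from background. Of 45101 probe sets 34945 had 1 gene in the platform annotation, 932 several, 9160 none listed and 64 were controls. Each of 18193 genes was read by its probe set of highest mean across the 8 arrays. All 107 members were found in RefSeq's gene table, with 0 changed symbols.

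Groups were compared with limma 3.58.1 in R 4.3.3 (two-sided moderated test from lmFit and eBayes, group as sole term, no filter), adjusted by Benjamini-Hochberg over all 18193 genes, and called at an adjusted p under 0.05. Values in brackets beside other probe sets come from the same test over the 34945 probe sets. Differences are knockout-labelled minus wildtype. The procedure was tested on simulated data. Members and lists were chosen with earlier results of these data known. The text names Otx2, each called member, the brightest uncalled member of each family and up to 3 called genes per direction of each further list. Values by array are given for the 10 largest changes in each direction. Other genes (among them the rest of the called genes of the lists) and probe sets named were picked with their values known.

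Replicate numbers are shared between groups. Over genes, the deviations of same-numbered arrays correlated at 0.131, 0.232, 0.160 and 0.223, each above the limit of 0.1. Arrays of different numbers gave -0.296 to 0.294, a range that holds all of these values, so the numbers are not shown to mark pairs. An alternative fit still took the numbers as pairs (the replicate block), and no label says what a number marks. The labels call the arrays biological replicates, and their number limits the precision. Array weights, another variance prior, other probe set choices, a dim-gene filter, other normalizations, other thresholds and leaving out each array were the alternatives.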

Additional observations from a re-analysis of the deposited data

Results flagged for a closer look

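Single arrays stood far from the other 3 of their group in 6 of the 126 groups of 4 examined, where chance gives about 1 in 20. Wildtype replicate 1 read 7.40 for Mgat4a, against 7.73 to 7.78 in the others. Knockout-labelled replicate 2 read 7.75 for Galnt10 (others 8.10 to 8.17), replicate 4 read 6.32 for Galnt13 (others 5.94 to 6.00) and replicate 1 read 5.03 for B3gnt4 (others 5.52 to 5.61). Wildtype replicate 4 read 11.48 for B4galt6 (others 11.34 to 11.35) and 9.89 for Gfpt1 (others 9.81 to 9.82). Without these arrays the log2 differences of Galnt13 and B4galt6 stayed within -1.90 to -1.78 and -0.87 to -0.75, the ranges over all fits that left out an array.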

How the results depend on the processing

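The count of enzyme genes was 16 higher and 13 lower. It was 9 and 7 at an adjusted p under 0.01 (601 and 1349 of all genes), and 6 and 6 with a log2 difference of at least 0.5 as well (560 and 968 of all genes). Over genes above the median level, where fewer genes were tested, it was 14 and 8, with a median log2 difference of 0.074. Leaving out an array gave 10 to 21 higher and 7 to 13 lower, with 905 to 1845 of all genes higher and 1633 to 2089 lower. The replicate block gave 18 and 13 and, of the 29 calls, lost that of St8sia4 alone and added Fut9, St6gal2 and St6galnac5. The mean of all probe sets gave 12 higher and 14 lower, where the brightest alone gave 16 and 13. Counts of all genes are not given for the level filter, the block or this mean, so those member counts have no background beside them. Of the 29 calls 17 held in all 8 fits without an array, 10 higher and 7 lower. With all arrays, and apart from the level filter and other thresholds, the family counts that moved by over 1.5 times were fucosyltransferase rises (1 to 2, block), sulfotransferase rises (3 to 5, array weights or median-centred arrays), heparan sulfate enzyme rises (1 to 2, array weights or quantile), galactosyltransferase rises (2 to 1, probe set mean, no shared probe sets or quantile), Gcnt rises (2 to 1) and Galnt rises (1 to 0, both by probe set mean). None of the 29, nor any called gene of the further lists, changed direction in an alternative run. Small differences of dim probe sets are limited by background, which could not be measured here.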
